A study of Caenorhabditis elegans with 2 samples.

Results

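The X chromosome of Caenorhabditis elegans held 19816 of the 105945 candidate peaks in the list that compared the 2 replicates of a CEH-58 chromatin immunoprecipitation sequencing (ChIP-seq) experiment, and 19528 of these are described here. A candidate was taken when its summit lay on X and over 200 bp from any annotated tRNA, snoRNA, snRNA or piRNA gene. This removed 288 X candidates, 214 of them near a tRNA gene, a class of which X carries 276. The same rule left 68835 candidates on autosomes II to V, with 17173 on II, 14388 on III, 14497 on IV and 22777 on V.

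CEH-58 is a homeodomain protein. The chromatin came from whole young adult worms at 65 hours of strain OP808, which carries unc-119(tm4063) and an integrated fosmid transgene, wgIs808, holding ceh-58 with a TY1, EGFP and 3xFLAG tag beside an unc-119(+) rescue marker. An anti-GFP antibody was used on chromatin sonicated to 200 to 800 bp. Both replicates belonged to this 1 group, no second condition was present, and whole animals mix all tissues, so the signal of one cell type cannot be told apart from that of another. Neither ceh-58 nor unc-119 lies on X. The signal of a candidate is the authors' own value per peak. The read depth behind it is unknown.

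Hermaphrodites of this species carry a pair of X chromosomes and males a single one. A dosage compensation complex loads onto both hermaphrodite X chromosomes at recruitment elements on X, and many of these elements carry a sequence motif that contains GCGCAG. X genes are largely silent in the germline, and X is poor in genes expressed in every cell. On the autosomes the central regions are denser in conserved genes than the repeat-rich arms, a contrast that is weaker on X. In these gene models X had 154 protein-coding genes per Mb, against 188 to 239 on autosomes II to V.

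The windows below reach 50 bp to either side of the summits of 6 X peaks of the conservative list, the authors' list of peaks reproducible between replicates. They are shown because each holds words met more often in X peaks than in autosomal ones, and were chosen after their sequences were seen. Each has GCGCAGGG or TATCCAC on either strand. Capitals mark these words. All were read from the reference genome, 5′ to 3′ on the plus strand of ce11, and none holds an annotated UTR base.
X:11094183-11094283: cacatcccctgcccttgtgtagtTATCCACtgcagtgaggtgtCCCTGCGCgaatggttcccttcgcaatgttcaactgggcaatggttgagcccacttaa
X:13700818-13700918: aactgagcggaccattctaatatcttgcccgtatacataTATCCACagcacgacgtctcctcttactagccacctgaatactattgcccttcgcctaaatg
X:9465836-9465936: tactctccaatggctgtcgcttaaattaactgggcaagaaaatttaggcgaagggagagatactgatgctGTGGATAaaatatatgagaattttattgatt
X:2997023-2997123: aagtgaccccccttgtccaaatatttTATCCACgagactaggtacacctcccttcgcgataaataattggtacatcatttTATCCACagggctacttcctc
X:806646-806746: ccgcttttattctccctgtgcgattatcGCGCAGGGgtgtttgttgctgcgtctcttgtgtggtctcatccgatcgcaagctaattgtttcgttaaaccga
X:8036350-8036450: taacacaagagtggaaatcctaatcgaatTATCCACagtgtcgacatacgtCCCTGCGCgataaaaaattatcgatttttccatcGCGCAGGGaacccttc

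The highest X candidates were of another kind. Below are the windows of the 2 highest X candidates whose sequence recurs in the genome. Capitals here mark bases covered by a word of 31 bases found once in the genome. The first window holds no such base, repeats with a period of 26 bases at a match of 97.3%, and is printed to show that array. The second holds 61 such bases.
X:15811060-15811160: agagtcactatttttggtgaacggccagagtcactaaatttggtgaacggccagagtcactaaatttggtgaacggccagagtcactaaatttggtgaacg
X:293390-293490: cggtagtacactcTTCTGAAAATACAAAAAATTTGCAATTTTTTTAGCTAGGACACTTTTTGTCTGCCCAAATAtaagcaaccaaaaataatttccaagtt

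Candidates were about as dense on X as on the autosomes. There were 1115 candidates per Mb of eligible X sequence, meaning bases over 200 bp from the RNA genes. Autosome IV had 1009, III had 1051, V had 1097 and II had 1132, a mean of 1073 ± 53.7 (SD, n = 4 autosomes). X lay inside this range. X held 22.1% of the candidates of X and II to V together (exact Clopper-Pearson 95% interval 21.8 to 22.4, counting error only) and 21.5% of their eligible bases. The density ratio of X to the pooled autosomes was 1.04.

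The replicates' own candidate lists placed the ratio on either side of equality. In replicate 1, X had 604 candidates per Mb against 583 to 650.0 on the autosomes, and the ratio was 0.982. In replicate 2, X had 606 per Mb against 568 to 624, and the ratio was 1.02. The mean ratio was 1.00 ± 0.0270 (SD, n = 2), so no difference in density beyond the spread between replicates was seen. With 2 replicates of 1 group, no test over samples was made for this or the later comparisons, and X is set against the spread of the autosomes and of the replicates. Nothing says whether the replicates came from separate cultures beyond their label as biological.

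Peaks that passed the authors' reproducibility threshold were sparser on X than on each of autosomes II to V. An irreproducible discovery rate (IDR) score of 830 or above, which corresponds to an IDR of 0.01 or below, was reached by 81 X candidates, beside a background of 0.519% over X and II to V. X had 4.63 such candidates per Mb, and the autosomes 4.88 to 7.52. The conservative list held 44 X peaks, beside 0.351% of all candidates of X and II to V that were the same peak there. This came to 2.51 peaks per Mb on X. The values were 3.32 on V, 3.49 on II, 4.60 on III and 5.64 on IV, a mean of 4.27 ± 1.08 (SD, n = 4 autosomes). X was below all 4, at 0.604 times the pooled autosomal density.

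The other thresholded lists placed X lowest as well. The authors' other thresholded list for the series, called optimal here, had 75 X peaks, or 4.28 per Mb against 5.88 to 8.04 on the autosomes. It does not simply extend the conservative list. Of the 81 X candidates at a score of 830 or above, 34 overlapped it and 44 overlapped the conservative list. The list of replicate 1 had 9 X peaks and that of replicate 2 had 10, at ratios of 0.369 and 0.689 to the pooled autosomes. X held 14.2% of conservative peaks of X and II to V (exact 95% interval 10.5 to 18.6), below its 21.5% share of bases. For replicate 2 alone the interval of the share, 7.88 to 27.3%, included the base share. Candidates of replicate 2 at a score of 830 or above were not sparser on X, where 43 of them gave a ratio of 1.07. Keeping the peaks near RNA genes raised the ratio of the conservative list to 0.895.

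**Figure D1:**
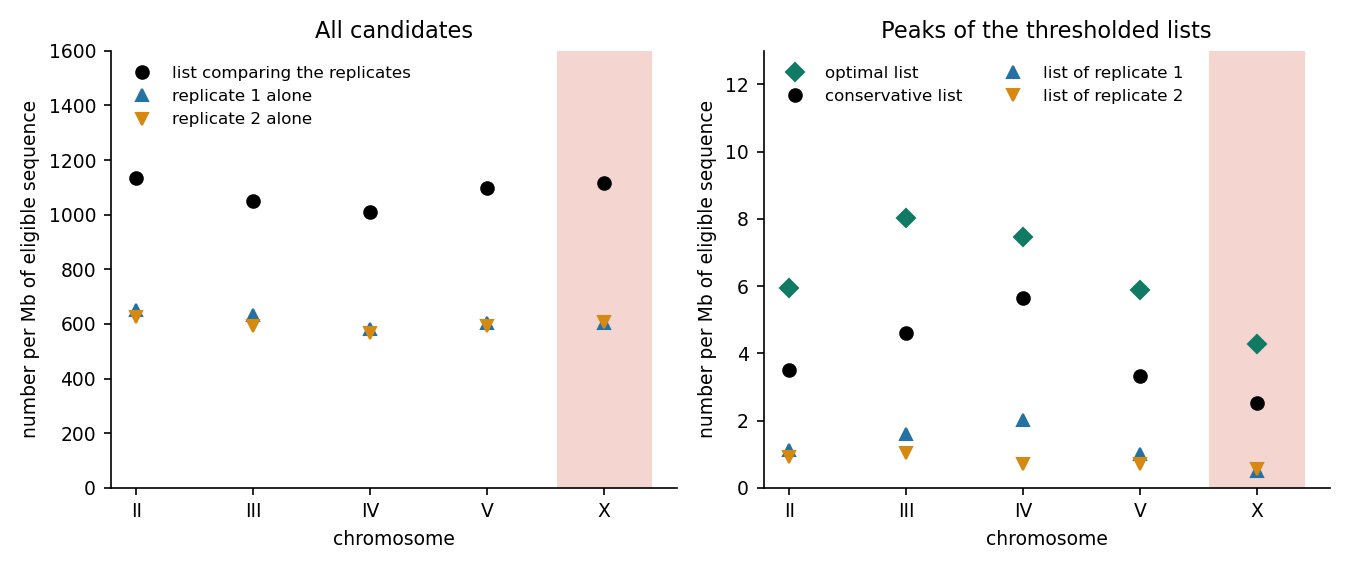
Number per Mb of eligible sequence (vertical axes) on autosomes II to V and on X (shaded) for candidates (left) and for the authors' thresholded lists (right). X lies inside the autosomal range at 1115 candidates per Mb on the left and lowest in each list on the right, at 2.51 peaks per Mb in the conservative list.

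The X share did not change in one direction with signal. Candidates of X and II to V were put in 10 deciles of equal size. In each of the 8 lower deciles of signal X held 22.0 to 22.7% of candidates. The share was 21.2% in the ninth decile and 20.5% in the highest (exact 95% interval 19.6 to 21.3). In the highest 1% of candidates, at signals of 56.6 and above, X held 159 of 884, or 18.0% (15.5 to 20.7). Among the 563 of these whose windows held only words of 31 bases found once in the genome, X held 91, or 16.2%. In the highest 0.1%, X held 21 of 89, or 23.6% (15.2 to 33.8), and 85.7% of these X summits were soft-masked as repeats by the reference.

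**Figure D2:**
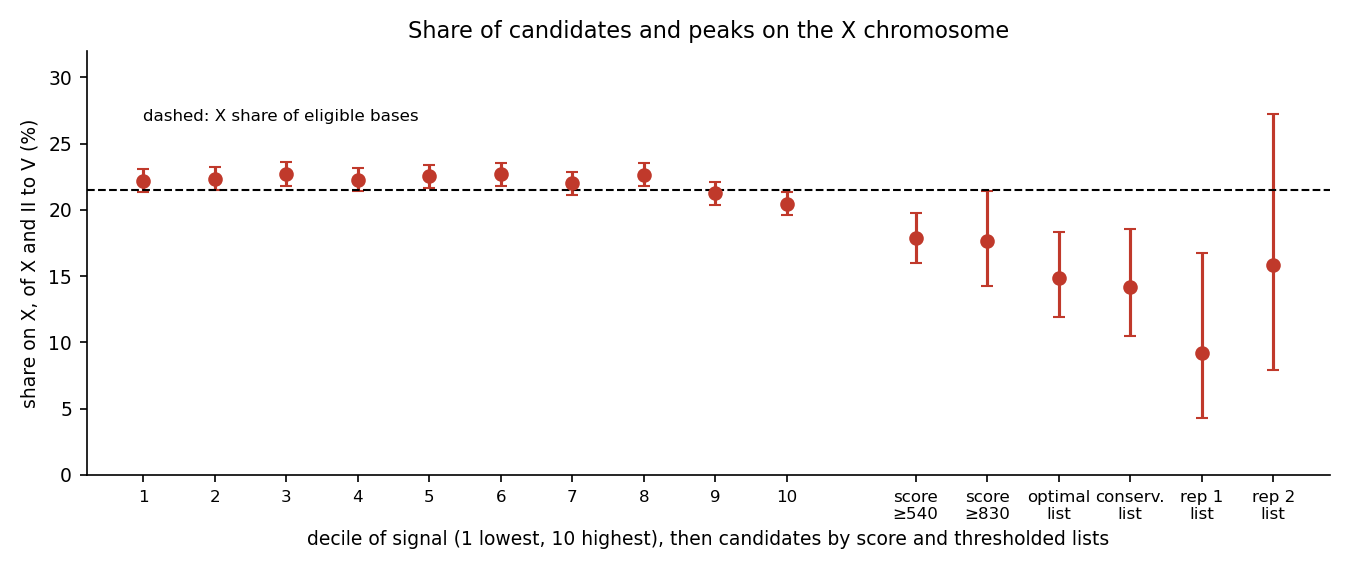
Share of candidates on X among those of X and II to V (vertical axis, %, exact 95% intervals) by decile of signal, by IDR score and in the thresholded lists. The share stays near the dashed base share of 21.5% through most deciles and is 14.2% in the conservative list.

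The median signal did not separate X from the autosomes. It was 21.7 on X, and 21.4 on V, 22.2 on both IV and II, and 22.3 on III. The log2 difference between X and the pooled autosomes was -0.016, and it was -0.025 in the list of replicate 1 and -0.018 in that of replicate 2 (mean -0.022 ± 0.0052, SD, n = 2). X lay inside the autosomal range in both replicates, at 16.1 against 16.1 to 16.6 and at 14.1 against 14.0 to 14.4. The 2 replicate signals that the list gives for each candidate, which it does not assign to a replicate, had X medians of 12.2 and 11.0, against 12.1 to 12.7 and 10.9 to 11.3 on the autosomes. Across the 19528 X candidates these 2 signals had a Pearson r of 0.25 on the log2 scale, against 0.25 to 0.29 on the autosomes, and 25.6% of X candidates overlapped a candidate of both replicates. The points share their libraries and peak regions.

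The 12 highest X candidates were all intergenic, all in sequence that recurs in the genome at least in part, and none was in the conservative list. The same held for the 12 highest of autosomes II to V. The highest on X, at X:15810955-15811191, had a signal of 3627, the highest of the whole list, with 1945 in replicate 1 and 1860.4 in replicate 2. It lay 6938 bp from the nearest start, that of Y7A5A.7. The next had signals of 1113 near R57.2, 1094 again near Y7A5A.7, 937 near Y102F5A.1 and 800 near elk-2, a potassium channel gene. The remaining 7 ran from 552 near C24H10.4 down to 246 near B0403.6, with others near fbxa-221 and the hexosaminidase gene hex-5. In both replicates' lists all 12 were high, with at least 111 in each.

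Some X candidates of high score lay close together, and no matching count of runs was made for the autosomes. Among the 81 X candidates at a score of 830 or above, 39 lay in 13 runs in which neighbours were at most 5000 bp apart. Of the 81, 44 were in the conservative list, and 34 of the other 37 were soft-masked. The median signal was 67.9 for the listed and 144 for the unlisted X candidates. On II to V the medians were similar, at 72.0 and 142, and 97 of the 112 unlisted candidates were soft-masked. On the autosomes 266 of 378 such candidates, or 70.4% (65.5 to 74.9), were listed, against 54.3% (42.9 to 65.4) on X. Autosome V was closest to X, at 63.3% (53.5 to 72.3), and its interval overlapped that of X. Density of the unlisted on X, 2.11 per Mb, was above the autosomal values of 1.38 to 1.93. Listed peaks whose windows held only words of 31 bases found once were counted per Mb of bases that start such a word. They numbered 1.69 on X and 2.03 to 4.83 on the autosomes. The part of repeats in the other differences was not tested.

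Promoters took a smaller share of X candidates than of autosomal ones, and promoter windows likewise took a smaller share of X bases. A summit counted as promoter from 1000 bp before to 200 bp after a transcript start of a protein-coding gene. Otherwise it counted as exon, intron or intergenic, in that order. Only protein-coding genes were used, so an intergenic summit can lie in a noncoding RNA gene. On X 22.4% of candidates (exact 95% interval 21.8 to 22.9) had a promoter summit, below the 25.1 to 30.05% of each autosome, while 21.9% of X bases were in promoter windows. The fold over bases was 1.02 on X and 0.991 to 1.05 on the autosomes. In the replicates' own lists the promoter share was different on X by -5.53 and -6.25 percentage points, a mean of -5.89 ± 0.510 (SD, n = 2).

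Exon summits showed the opposite order when set against bases. Their share was 26.9% on X, below the 27.6 to 30.05% of the autosomes, but 20.1% of X bases were exonic outside promoters, and the fold of 1.34 was above the 1.25 to 1.32 of every autosome. This held in both replicates, with folds of 1.40 and 1.40 on X against at most 1.38 and 1.36. Candidates in exons were the densest class on X, at 1490.1 per Mb. Intron summits made up 23.2% on X, inside the autosomal range of 20.3 to 26.4%, and their fold of 0.899 was above the autosomes' 0.815 to 0.888. In replicate 1 the intron fold on X, 0.862, lay inside the range.

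Intergenic summits made up 27.5% of X candidates (26.9 to 28.1), above the 18.5 to 22.0% of each autosome, a difference of 6.75 percentage points that was 6.88 and 7.08 in the replicates' lists. Intergenic bases made up 32.1% of X and 20.3 to 24.7% of the autosomes, so the fold of 0.855 lay inside the autosomal range. In the conservative list the order was different. There 23 of 44 X peaks, or 52.3% (36.7 to 67.5), were intergenic, against 66 of 266, or 24.8% (19.7 to 30.5), on II to V. The fold over bases of 1.63 was above the 0.804 to 1.23 of every autosome. Of the 23 X peaks, 3 lay in the noncoding RNA gene C30E1.9. In the optimal list 33 of 75 X peaks were intergenic, against 17.8 to 26.2% on the autosomes. Intron peaks were 2 of 44 on X and 39 of 266 on II to V in the conservative list. In the optimal list they were 12 of 75 on X, or 16.0%, inside the autosomal 11.8 to 18.0%.

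**Figure D3:**
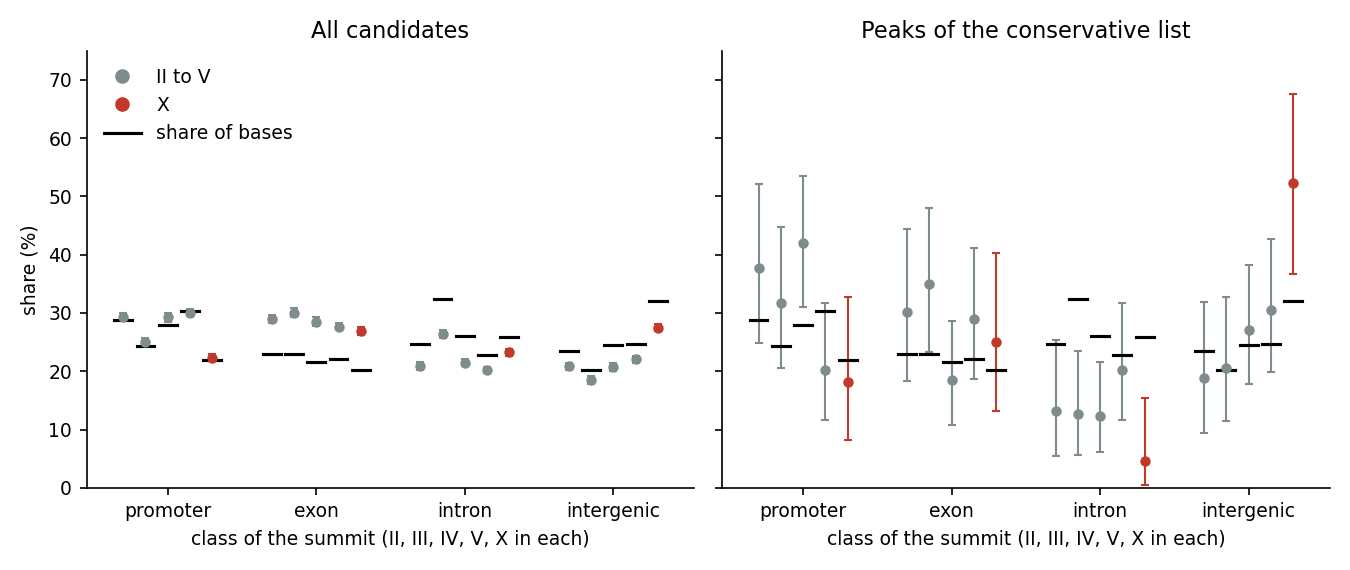
Share of summits in each class (vertical axis, %, exact 95% intervals) on autosomes II to V (grey) and X (red), with black bars for the share of eligible bases in that class. Among candidates the shares follow the bases, and in the conservative list intergenic peaks make up 52.3% on X.

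Candidates were denser at higher GC content on every chromosome compared, and X ran slightly above the pooled autosomes within each of 8 bins. Mean GC within 50 bp of X summits was 39.3% against 35.2% over X bases, a gain of 4.07 points that lay inside the autosomal 3.81 to 4.55. The X mean lay 0.561 points below the pooled autosomes, with V lower than X at 39.2%. In sequence under 25% GC there were 372 candidates per Mb on X and 340 on II to V. At 55% GC and above there were 2982 and 2527. The ratio ran from 1.04 to 1.18 over bins, and X was above all 4 autosomes in 6 of 8. With bins weighted as on X the ratio was 1.02 in replicate 1, where 5 of 8 bins were above 1, and 1.06 in replicate 2.

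Listed X peaks were richer in GC than X candidates, with a mean of 48.2%. This was 13.1 points above X bases, against 9.98 to 12.3 points on the autosomes. The replicates' own lists had the opposite order, with X at 3.42 points against 7.14 to 13.7 in replicate 1 and at 5.80 against 7.88 to 13.5 in replicate 2, over 9 and 10 X peaks. At 55% GC and above lay 10 of the 44 listed X peaks and 63 of the 266 on the autosomes, which are similar shares.

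Near transcript starts X candidates were densest just inside the transcript, at 1382 per Mb in the first 200 bp, against 1268 to 1361 on the autosomes. In the 200 bp upstream there were 1169 on X and 1017 to 1070 on the autosomes. X was above all 4 autosomes in 5 of 12 distance bins and below all 4 in none. The median X candidate lay 1517 bp from a start, and the median X base 1568 bp. Listed X peaks lay farther out, at a median of 2276 bp, against 737 to 1187 bp on the autosomes. The median autosomal base was also nearer to a start than the median X base, at 1064 to 1456 bp.

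**Figure D4:**
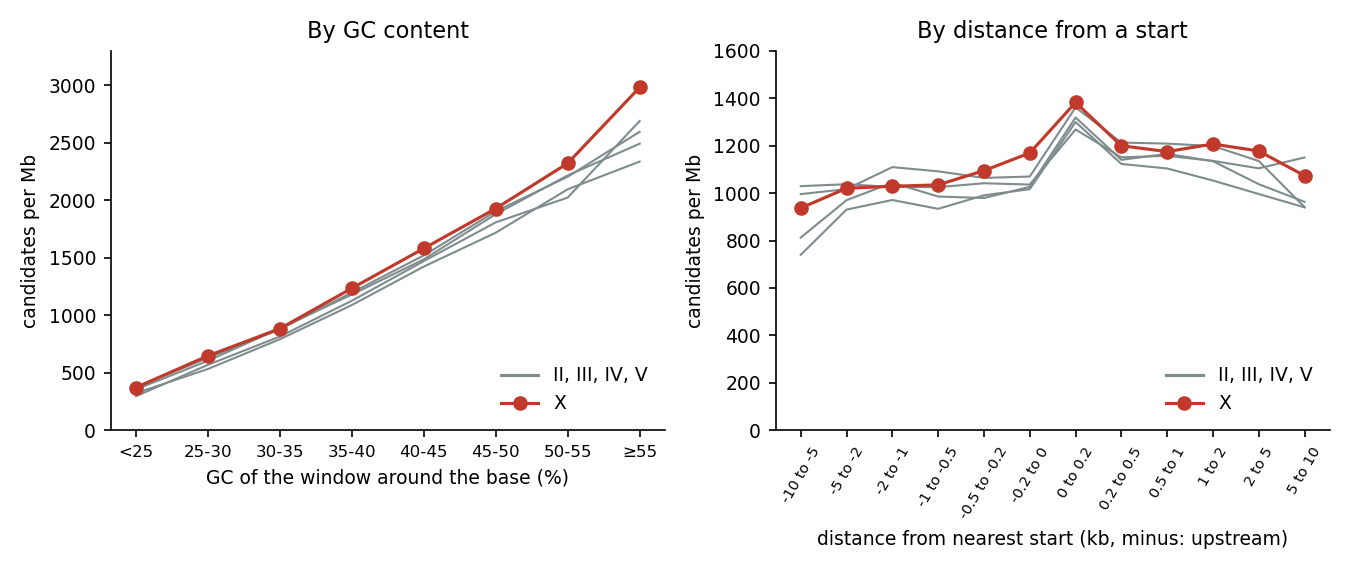
Candidates per Mb (vertical axes) by GC content within 50 bp (left) and by distance from the nearest transcript start (right), on X (red) and autosomes II to V (grey). X reaches 2982 per Mb at the highest GC and 1382 per Mb in the first 200 bp of transcripts.

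Along X the candidates were evenly spread. Over 10 equal segments of its length the density ran from 1033 to 1184 per Mb, with a coefficient of variation of 3.76%, against 3.66 to 11.2% on the autosomes. The outer segments, meaning the first 2 and the last 2, had 0.992 times the density of the inner ones, against 0.909 to 0.990 on the autosomes. Listed peaks numbered 23 in the 4 outer and 21 in the 6 inner segments of X, or 3.28 and 2.00 per Mb. On IV and V the outer segments were also the denser, at 6.38 against 5.24 and 3.48 against 3.22 per Mb. On II and III the inner ones were, at 4.403 against 2.14 and 5.36 against 3.46 per Mb. The last segment of X held 11 listed peaks.

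On both strands 9 words of 6 bases were searched. GCGCAG was found at a larger share of conservative peaks on X than on the autosomes, and at a similar share of candidates relative to bases. It occurred around 1.77% of X candidate summits and 1.16% of X bases, a fold of 1.53 inside the autosomal 1.45 to 1.59. In the conservative list 5 of 44 X peaks held it, against 9 of 266 on II to V, with 4, 2, 2 and 1 on II, III, IV and V. CACACA, at 5.86% of X candidates, was above the 4.54 to 4.97% of the autosomes, with a fold over bases of 1.21 on X and 1.10 to 1.18 there. TAATTA, a core word bound by many homeodomains, occurred at 3.51% of X candidates, below its share of X bases, at a fold of 0.673 against 0.707 to 0.740. ATCGAT, included as a control palindrome, was found at 2.15% of X candidates and 2.93 to 3.48% of autosomal ones. It was also rarer in X bases, and its fold over bases was 1.07 on X and 0.809 to 0.960 on the autosomes. GAGAGA occurred at 6.12% of X candidates, inside the autosomal 5.60 to 7.03%, with a fold over bases of 1.25. CTGCGT was found at 2.30%, below the autosomal 2.50 to 3.02%, with a fold of 1.32 against 1.35 to 1.49. TTAATT was found at 10.6%, below its 15.2% of X bases, with a fold of 0.701 inside the autosomal 0.697 to 0.725. TGATAA was found at 8.43%, above the autosomal 7.40 to 8.13% but below its 9.94% of X bases, with a fold of 0.849. CACGTG was found at 1.57%, below the autosomal 1.95 to 2.44%, with a fold of 1.19 against 1.20 to 1.38.

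The longer word GCGCAGGG was looked up after the printed windows had been seen, and so carries no test. It was commoner on X to begin with, at 4.57 occurrences per Mb against 1.88 to 3.17 on the autosomes. Around summits it occurred at 25 of 19528 X candidates, 0.128% (exact 95% interval 0.0829 to 0.189), and at 27 of 68835 on II to V, 0.0392% (0.0259 to 0.0571). The fold over bases was 3.04 on X and 0.390 to 2.15 on the autosomes. In the conservative list 3 of 44 X peaks held the word and 0 of 266 on II to V, which allows a share of up to 1.13%. The optimal list had 4 of 75 on X and 0 of 429.

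On X, candidates with GCGCAGGG had a higher median signal than all candidates in both replicates. The word was chosen from windows of listed X peaks, and candidates at those peaks can be counted here. That choice alone can raise the X medians, so these values are a description and no independent support. In replicate 1 the 12 X candidates with the word had a median signal of 30.4 against 16.1 for all X candidates. In replicate 2 the 13 with the word had 22.3 against 14.1. On the pooled autosomes the medians with the word were 16.4 of 16 candidates and 14.7 of 20, against 16.4 and 14.2 overall. The median difference on the log2 scale was thus 0.91 and 0.66 on X and 0.00 and 0.05 on II to V.

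The word TATCCAC, likewise chosen after the windows were seen, was no commoner on X, at 0.729% of X bases and 0.735 to 0.793% of autosomal ones. Among all candidates its share of 0.886% on X lay inside the autosomal 0.815 to 0.938%. In the conservative list it occurred at 5 of 44 X peaks (11.4%, 3.79 to 24.6) and 2 of 266 on II to V (0.752%, 0.0912 to 2.69). In the list of replicate 1 it was at none of 9 X peaks and in that of replicate 2 at 1 of 10. Either word was at 6 of the 44 X peaks and both were at 2.

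**Figure D5:**
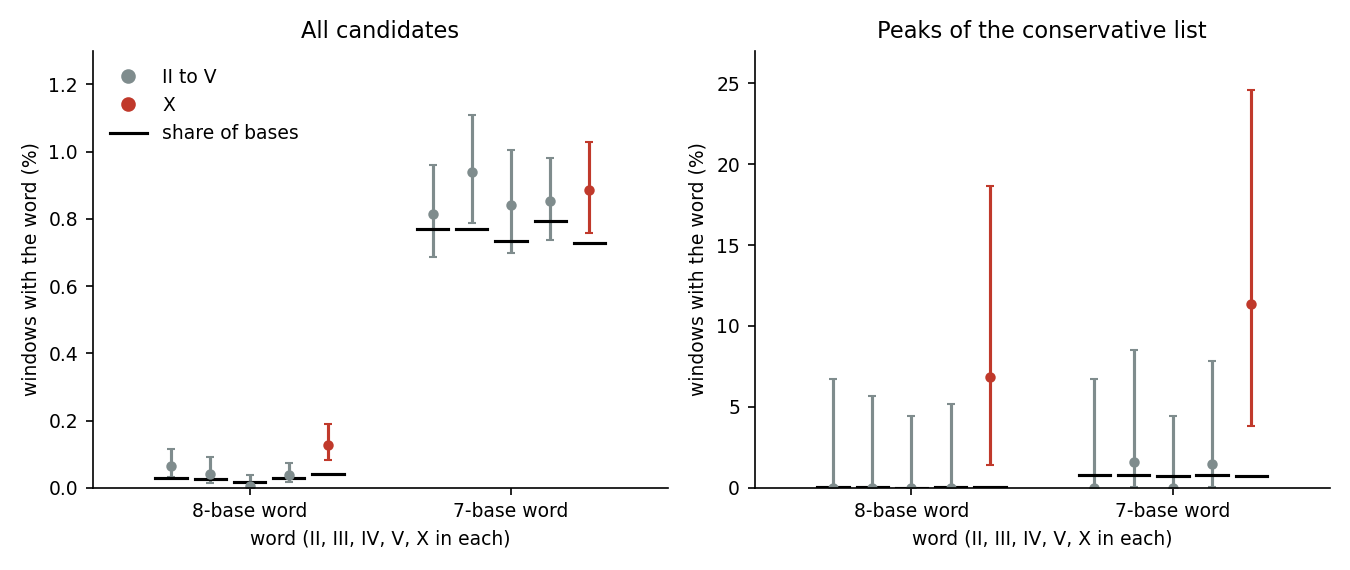
Share of windows around summits that hold the words of 8 and 7 bases (vertical axes, %, exact 95% intervals) on autosomes II to V (grey) and X (red), with black bars for the share of bases. In the conservative list 6.82% of X peaks hold the 8-base word and 11.4% the 7-base word, against 0% and 0.752% on II to V pooled. Both words were chosen after windows of listed X peaks had been seen, which alone can raise these X shares.

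Of these 6 peaks 5 were intergenic, and their signals ran from 64.5 to 103. The window at X:11094183-11094283 belongs to a peak of signal 103 (47.9 in replicate 1 and 52.9 in replicate 2), 3953 bp from the start of W02H3.3. That at X:13700818-13700918 had 86.7 (38.9 and 41.9) and lay 6039 bp from K02D3.1. That at X:9465836-9465936 had 82.6 (40.01 and 33.4), near ZK899.6. All 3 had similar values in the replicates. The window at X:2997023-2997123 lay in an intron of Y41G9A.17, with 76.5 (37.7 and 33.4). That at X:806646-806746, nearest to gtr-1, had 75.3 (38.7 and 36.6). The one at X:8036350-8036450, with 64.5 (38.2 and 28.0), lay 4913 bp upstream of xol-1, the switch gene of sex determination and dosage compensation. Outside the conservative list, GCGCAGGG also occurred 2 times at a candidate of signal 66.8 (44.6 and 23.3) in an intron of mom-1, a gene of Wnt secretion, and once at one of 66.0 (34.7 and 23.6) near F20B6.9.

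Among the 44 listed X peaks, signals ran from 26.98 to 168 with a median of 67.9, below the 71.0 to 73.1 of the autosomes. The highest, at X:2057911-2058146, had 168 with 113 in replicate 1 and 47.1 in replicate 2. The next, near fbxa-190, had 146 with 71.2 and 76.1. Both lay in repeated sequence. A run of 3 listed peaks with signals of 119, 109 and 71.6 fell in the noncoding RNA gene C30E1.9, where replicate 1 had 60.3, 63.0 and 35.7 and replicate 2 had 57.1, 65.7 and 33.9.

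Promoter peaks were not among the highest X peaks. The first had a signal of 70.6 at fipr-21, with 46.6 in replicate 1 and 28.2 in replicate 2. F53A9.1 followed with 68.9 (30.2 and 32.1) and H18N23.2 with 67.5 (38.0 and 25.9). Among these, the replicates differed most at fipr-21. F17H10.4 had 66.5 (35.9 and 32.8), and pfn-2, a profilin gene, had 65.4 (37.9 and 27.5). The candidate at epn-1, which encodes the endocytic adaptor epsin, had 65.0 with 37.9 in replicate 1, no overlapping candidate in replicate 2, and was not listed.

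Exon peaks of high signal lay in genes of varied function. H03A11.2 held the highest, at 144 (71.6 and 80.7), in repeated sequence and not listed. The listed peak in gmap-1 had 79.7 (35.1 and 39.03) and that in W05H7.1 had 75.4 (45.8 and 26.9). The candidate in F46H5.7 had 74.2 (45.6 and 19.8) and was not listed. Introns of unc-96, a gene of muscle M-lines, and of aagr-4, an acid glucosidase family gene, held candidates of 70.2 (26.5 and 43.0) and 66.2 (33.1 and 35.2), both in partly repeated sequence.

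A smaller share of X genes than of autosomal genes had a promoter candidate of high score. Of 2731 protein-coding X genes 2244, or 82.2%, had a promoter candidate of any score, against 70.1 to 82.1% on the autosomes. A score of 830 or above was reached at 8 X genes (0.293%), against 0.638, 0.947, 1.10 and 0.320% on II, III, IV and V. X was thus lowest, with V close to it.

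Gene lists with X members mostly held promoter candidates below that score. Their counts, apart from those of microRNA genes, are read against the 82.2% of all X genes with a candidate and the 0.293% at 830. The list of X signal elements and dosage compensation genes had a candidate at 6 of 6 X members, none at 830, with a median highest signal of 25.2 against 26.9 over all X genes. Its highest were fox-1, an RNA-binding X signal element, at 50.2 (23.4 and 19.8), and sdc-1, a dosage compensation gene, at 42.9 (27.2 and 17.4). The ceh homeobox genes had a candidate at 17 of 18 X members, and at 30 of 37 on II to V. The median highest signal over members with a candidate was 32.4 on X and 23.2 on II to V. The highest on X were ceh-63 at 49.6 (29.2 and 15.7) and ceh-54 at 44.7 (31.5 and 17.5). None of these reached the score of 830.

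Neuropeptide genes, which encode signalling peptides, had a candidate at 31 of 34 X members (91.2%) and at 78.2% of those on II to V. The X members were led by flp-5 at 51.7 (23.6 and 26.5) and flp-11 at 47.4 (16.4, and no overlap in replicate 2). Vitellogenin genes, which encode yolk proteins, had one at 5 of 5 X members and at the 1 member on II to V, led by vit-5 at 43.2 (22.6 and 26.6) and vit-3 at 28.7 (15.5, and no overlap in replicate 2). Cuticle collagens had one at 26 of 27 X members (96.3%) and at 83.3% of those on II to V, led by col-175 at 41.6 (14.1 and 20.1) and col-172 at 41.6 (20.2 and 21.1). The median highest signal over X members with a candidate was 28.9 for neuropeptide, 12.6 for vitellogenin and 23.1 for collagen genes. Over all X genes it was 26.9. None of these X list members reached 830 at its promoter, and on II to V 1 of 108 collagens did. Listed peaks nonetheless lay in exons of 4 of the X members. These were nlp-53 at 68.3 (47.4 and 24.3), col-175 at 64.6 (34.2 and 28.0), col-176 at 63.3 (34.6 and 30.9) and vit-2 at 61.5 (29.4 and 34.8).

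Among receptor and channel genes 1 promoter on X reached the score, and on II to V that of 1 of 29 twk potassium channel genes did. Ligand-gated channels had a candidate at 10 of 18 X members (55.6%) and at 70.3% of those on II to V. They held the only X list member at 830, lgc-47 at 61.5 (33.2 and 30.4), followed by lgc-17 at 42.6 (22.3 and 19.3). Acetylcholine receptor genes had one at 5 of 6 X members (83.3%) and at 9 of 12 on II to V, led by acr-10 at 42.1 (25.4 and 22.6) and acr-12 at 38.8 (25.1, and no overlap in replicate 2). Potassium channels of the twk family had one at 8 of 10 X members and at 75.9% of those on II to V, led by twk-17 at 31.6 (18.2 and 13.3) and twk-26 at 29.9 (27.2 and 17.8). Ribosomal proteins had 2 X members, of which rpl-25.1 had a candidate at 33.5 (22.0 and 11.3), and 92.6% of those on II to V had one. On II to V 4 of 54 ribosomal protein genes reached 830. MicroRNA genes had one at 41 of 74 X members (55.4%) and at 59.7% of those on II to V, led by cel-mir-34 at 53.2 (30.2 and 22.6) and cel-mir-360 at 43.7 (21.8 and 20.3). These were counted within 200 bp of the gene. No background share was taken for windows of that kind, so whether these shares are high or low is unknown.

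The candidates nearest the 200 bp limit had ordinary signals. Just inside the set were one near the piRNA gene 21ur-15500, with a signal of 23.5, and one 204 bp from a tRNA gene, with 17.9. Just outside were one 198 bp from 21ur-10165, with 16.5, and one 195 bp from 21ur-11655, with 12.4.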

How the data were processed

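Peak lists were deposited on assembly ce11 per the labels, which has the sequence of the reference WBcel235. There were 4 thresholded and 4 candidate lists. The authors deposited a signal and an IDR score per peak, with a highest score of 1000, in columns without headers. No version of an aligner or peak caller is given in the sources used here. Control alignments entered the authors' processing and were not analysed here.

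The summit was the start plus the summit offset. Ensembl release 115 gene models gave the classes. Eligible bases were those over 200 bp from the 4 RNA gene classes, and the share of each class was set beside its share of eligible bases. GC was taken over the summit and 50 bp to either side. A base was unique when it starts a 31-base word found once in the genome. Signals by replicate are the highest among that replicate's own candidates overlapping by at least 1 bp. Intervals are exact Clopper-Pearson 95% intervals for counting error only, and the limit for a count of 0 is 3 counts. The scripts ran in Python 3.11.15 with matplotlib 3.10.9, pandas 2.3.3, scipy 1.17.1 and numpy 2.4.6, and were tested on simulated data. The candidates, lists, 9 motifs and alternatives were chosen with earlier results of these data known. Named candidates are the 12 highest on X, the highest 6 in promoters and 4 in each other class, and the 2 highest of each gene list, which are taken at promoters. For microRNA genes a summit within 200 bp of the gene was taken instead. The words GCGCAGGG and TATCCAC, their peaks and the other listed peaks were chosen after their values were seen.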

Additional observations from a re-analysis of the deposited data

How the results depend on the processing

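The density ratio of 1.04 changed direction to 0.793 at a score of 540 or above, to 0.783 at 830, and in replicate 1 alone, where replicates left out gave 0.982 to 1.02. It was 1.07 without the exclusion near RNA genes, 1.00 in bases not soft-masked, 1.07 within GC bins and 1.08 over whole chromosomes. The signal difference of -0.016 was 5.1e-05 at 540, 0.16 at 830, 0.0021 within GC bins, -0.029 in the other candidate list, -0.023 in unique bases, -0.022 in one of the paired signals, and -0.025 to -0.018 by replicate. The promoter difference (-6.29 points) was -10.0 at 540, -15.3 at 830, -3.35 and -9.79 with the shorter and longer promoter windows, and -6.25 to -5.53 by replicate. The exon difference (-1.74) was 1.78 with the longer window and -4.53 with the shorter, -6.20 at 540, -6.35 at 830, -1.81 at 500 bp from RNA genes, -3.41 not soft-masked, -2.05 unique, -1.99 with chromosome I, -0.935 within GC bins, and -1.97 to -1.91 by replicate. The intron difference (1.28) was -8.38 at 830, 3.15 at 540, 3.22 not soft-masked, 1.75 unique, 0.586 with chromosome I, 0.859 within GC bins, 0.561 and 2.46 with the shorter and longer windows, and 0.616 to 1.08 by replicate. The intergenic difference (6.75) was 13.1 at 540, 29.98 at 830, 6.51 not soft-masked, 7.21 with chromosome I, 6.55 within GC bins, 7.33 and 5.55 with the shorter and longer windows, and 6.88 to 7.08 by replicate. The GC difference (-0.561) was 0.372 at 540, -1.28 at 830, -0.562 in the other list, -0.557 at 500 bp and in unique bases, -0.447 without exclusion, -0.667 not soft-masked, -0.646 with chromosome I, -0.578 and -0.469 with the shorter and longer GC windows, and -0.511 to -0.510 by replicate. The cause was not tested. Leaving out each autosome in turn gave density ratios of 1.02 to 1.05, signal differences of -0.034 to -0.0099, promoter differences of -7.23 to -5.59, exon differences of -2.25 to -1.38, intron differences of 0.438 to 2.45, intergenic differences of 6.16 to 7.40 and GC differences of -0.857 to -0.422. For the conservative list the ratio of 0.604 was 0.895 without the exclusion, 0.369 to 0.689 in the replicates' lists and 0.551 to 0.674 without each autosome, and stayed below 1 in all 13 alternatives, which were added after the data were seen. No paired analysis was possible because the 2 replicates form 1 group.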

Other observations

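Over the 10 equal segments of X the listed peaks ran from 1 in segments 4 and 7 to 7 in segment 8 and 11 in segment 10. Segment 1 had 16 candidates at a score of 830 or above and 6 listed peaks, and segment 6 had 13 and 5. At the X gene gpd-3, a glyceraldehyde-3-phosphate dehydrogenase, 2 listed peaks lay close together with series-wide signals of 46.1 and 26.98, each overlapping the same candidate of 34.6 in replicate 1 and 32.4 in replicate 2. The second was the listed X peak of lowest signal. The windows were 38.0 and 63.4% unique, so reads there can be shared with another copy.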
